A study of Homo sapiens with 9 samples.

Results

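The voltage-gated and neurotransmitter-gated ion channels are the proteins that let sodium, calcium, potassium or chloride ions cross a cell's membrane when the voltage changes or a transmitter binds. The genes were chosen by symbol: every protein-coding gene in the count tables whose symbol starts as those of the voltage-gated sodium (SCN) and calcium (CACN) channels, the potassium channels (KCN), the ionotropic glutamate receptors (GRIA, GRID, GRIK, GRIN), the GABA-A receptors (GABR), the nicotinic acetylcholine receptors (CHRN) and the glycine receptors (GLR). This gave 196 of 60664 genes listed, of which 19966 are protein-coding. The symbols also take in the auxiliary subunits and a few proteins that bind to channels, and 2 genes that encode no receptor subunit, GRINA among them.

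The RNA came from the HEK293 Flp-In T-REx line, a human embryonic kidney line with an integration site and a tetracycline-responsive repressor, used to express a chosen insert on induction. There were 3 libraries of control cells expressing no microRNA, 3 of cells expressing a microRNA against TTC33 and 3 of cells expressing a microRNA against CCDC97. All 3 groups, controls included, received tetracycline at 100 ng/ml for 3 days. The comparisons ask which transcripts differ when the RNA of either gene is reduced, and protein was not measured in these libraries. TTC33 is the protein after which the series names a protein network. Since controls expressed no microRNA, an effect of the target's loss cannot be told apart from an effect of the microRNA or of the line. The labels do not say whether a knock-down line is 1 clone or a pool, or whether the replicates are separate cultures, so the p-values measure no more than library-to-library spread, part or all of which may be technical.

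Sodium channels start the action potential, potassium channels end it and set the resting potential, and calcium channels couple it to transmitter release and other cell responses. Glutamate and nicotinic receptors pass excitation on at synapses, and GABA-A and glycine receptors inhibit. Each channel is built from pore-forming subunits, joined in many cases by auxiliary subunits that set its trafficking and gating. These genes are best known from neurons and muscle, but HEK293 cells, which are widely used to express channels from added DNA, also carry small currents of their own and a set of neuronal transcripts.

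The genes named below were counted in libraries that held 21764203 to 36110891 reads assigned to genes. TTC33 itself was at 37.7, 37.1 and 38.6 counts per 1000000 assigned reads (CPM) in controls and at 9.67, 6.41 and 6.16 CPM in its knock-down, 19.7% of the control mean. CCDC97 fell from 60.6, 60.1 and 59.5 CPM to 15.8, 15.3 and 15.7 CPM in its own knock-down, 26.0% of the control mean, so both targeted genes went with the labels. In the TTC33 knock-down CCDC97 was at 65.1, 81.3 and 95.8 CPM (log2 0.43 ± 0.12 SE, adjusted p = 0.0371, edgeR's quasi-likelihood test). In each knock-down, replicate 1 differed from the other two in how levels followed base composition. In the tenth of genes with the highest GC content, the median log2 difference from the control mean was -0.08 in TTC33 replicate 1 against 0.33 and 0.36 in replicates 2 and 3, and 0.13 in CCDC97 replicate 1 against -0.24 and -0.25 in the other two. Counts of called channel genes are therefore also given with GC content and length corrected for, and without those 2 libraries.

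Of the 196 channel genes, 17 had no count in any of the 9 libraries. They included GABRA3, GABRA4, GABRA6 and GABRB1 of the GABA-A receptors, GLRA1 of the glycine receptors and GRIA4 of the AMPA receptors. A further 40 had 1 to 9 counts over all libraries together. Altogether 97 were too low to test and 99 were tested among 18299 genes, with 72 of the 99 at a mean of 1 CPM or more in controls and 25 at 10 CPM or more. A gene was tested where enough libraries reached 0.323 CPM: 85 of the 99 did so in all 3 controls, and 14 did not, of which 11 did so in all 3 TTC33 knock-down libraries. The highest group mean of any untested member was 0.326 CPM.

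Per kb of exon, the highest control level belonged to GRINA, a membrane protein related to cell-death inhibitors that shares only its name with the receptors, at 21.0 CPM per kb. CHRNA5, an accessory nicotinic subunit, followed at 10.5 CPM per kb, CACNA2D1, the calcium channel alpha2delta subunit that binds gabapentin, at 7.71 CPM per kb, KCNK1, a two-pore-domain potassium channel, at 5.48 CPM per kb and GLRB, the glycine receptor beta subunit that binds gephyrin, at 4.98 CPM per kb. By total reads, SCN9A, the sodium channel of pain-sensing neurons, stood at 28.4, 28.5 and 26.6 CPM in controls, CACNB4 at 30.0, 27.9 and 28 CPM and KCNC4 at 37.9, 37.3 and 37.5 CPM. Their control libraries lay close together. GLRB had no testable alpha partner: GLRA3 and GLRA2 were at 0 to 0.0951 CPM in every library, and none of the 4 AMPA receptor subunits was tested. Of the GABA-A receptors, 6 of 19 were tested.

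**Figure D1:**
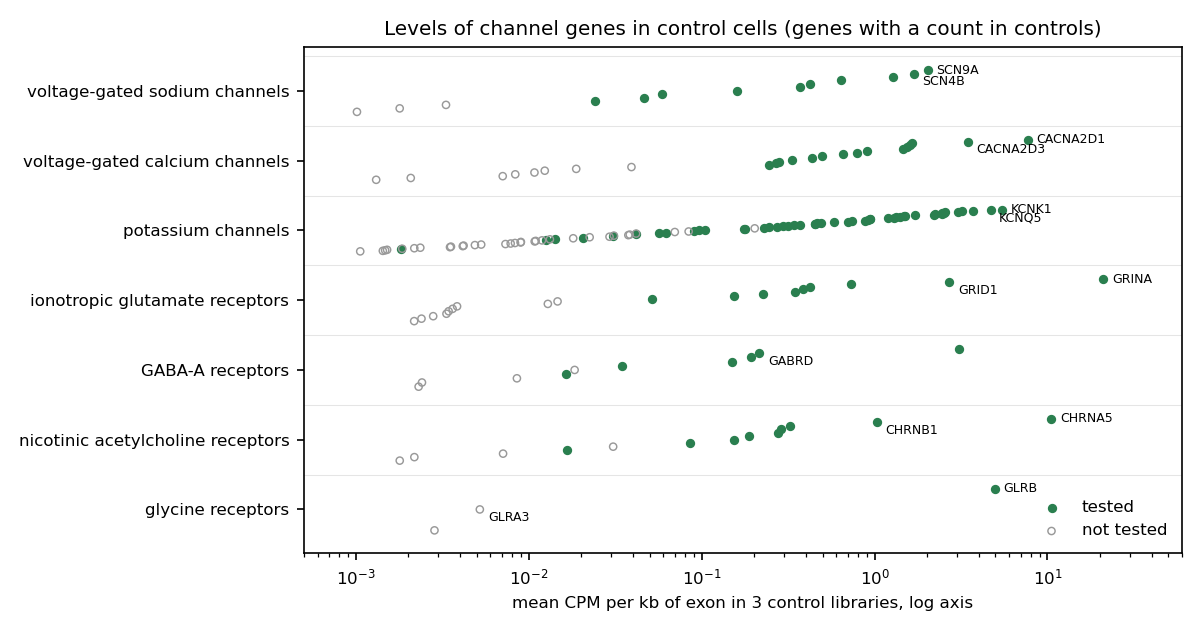
Mean level of each channel gene in the 3 control libraries, as CPM per kb of exon on a log axis, by family; filled points were tested and open points were not, and genes with no count in controls are left out. GRINA (21.0) and CHRNA5 (10.5) are the highest, and in the glycine receptor family GLRB alone is above the untested range.

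In the TTC33 knock-down, 21 channel genes rose and 2 fell of the 99 tested, at an adjusted p under 0.05 in edgeR's quasi-likelihood test with Benjamini-Hochberg adjustment over all genes tested. That is 21.2% higher and 2.02% lower, against 6.5% higher and 5.44% lower (11.9% in all) among all 18299 genes, and 8% and 6.33% among the 13722 that are protein-coding. Because some members were tested only through the knock-down group, the 85 whose controls all reached the minimum are the fairer count: 13 rose (15.3%) and 2 fell, against 6.25% and 5.92% of 16823 genes chosen the same way. Their groups did not overlap in any of the 23 called genes. Of the 85, 26 had all 3 knock-down libraries above all 3 controls and 13 all below; of all genes tested these were 19% and 17.8%. The median log2 fold change was 0.04 over the 85, 0.11 over the 99 and 0.00 over all genes tested. In bulk RNA, fewer cells with a transcript and less of it per cell cannot be told apart.

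The tested channel genes had a median exon GC content of 54.0%, against 48.2% for all genes tested, and the 21 that rose a median of 50.3%. With GC content and length corrected for, 27 channel genes were higher and 14 lower (27.3% and 14.1%, against 13.2% and 14.3% of all genes), all 23 calls remained, and the median over the 99 became 0.01. The share of calls that were higher thus changed with this correction, while the 21 did not drop out. Without replicate 1 of both knock-downs, 37 channel genes were higher and 15 lower of 101 tested (36.6% and 14.9%, against 24.5% and 24.1% of all genes). Leaving out control replicate 1 or 2 left 12 higher (11.9%, against 1.67% and 1.73% of all genes). Of the 21, 12 passed in each of the 9 fits that leave out a library. The 2 decreases became 0 without any 1 control library or TTC33 replicate 3, 1 without TTC33 replicate 2, 4 without CCDC97 replicate 1 and 13 without TTC33 replicate 1. Of all genes, 1.29% to 1.72% were lower in the fits with 0. The share was 1.38%, 7.21% and 17.7% in those with 1, 4 and 13.

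The largest increases were in potassium channels, among them genes nearly silent in control cells. KCNJ3 (ENSG00000162989), the G-protein-gated inward rectifier subunit of heart and neurons, had 0.0276, 0 and 0 CPM in controls and 0.675, 0.728 and 0.536 CPM in the TTC33 knock-down. That is 56 reads against 1, a ratio of 67.9 with a 95% interval of 11.7 to 2731 that covers counting error only (adjusted p = 0.000345, edgeR's quasi-likelihood test). KCNK3, an acid-sensitive background channel, had 0.0276, 0.0816 and 0.127 CPM in controls and 0.900, 0.555 and 1.03 CPM in the knock-down, a log2 change of 3.36 ± 0.43 (SE; adjusted p = 0.00102, edgeR). All knock-down libraries stood several-fold above all controls for both genes, and both passed whichever library was left out. Both reached the minimum for testing in the TTC33 knock-down and not in all controls. Their place among the largest increases thus follows in part from the filter. In the CCDC97 knock-down neither passed, with KCNJ3 at 0 to 0.0354 CPM and KCNK3 at 0.0354 to 0.0661 CPM.

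To show where these genes start, the promoter windows of KCNJ3, KCNK3, GABRE, GABRQ and GRIK3 are printed from RefSeq on GRCh38.p14, from 250 bases before to 50 bases after the annotated start, 5′ to 3′ on the gene's strand. They are the channel genes with the largest increases, a pair of neighbouring receptor genes on the X chromosome, and the gene that moved in opposite directions in the knock-downs. Capitals mark CAGCACC or GGACAGC on either strand (GGTGCTG and GCTGTCC on the other), the left and right parts of the RE1 element bound by REST, a repressor of neuronal genes in other cells. The second ends and the first begins with CAGC, so that matches can overlap; none printed here does.
KCNJ3 promoter (chr2:154698445-154698744, plus strand): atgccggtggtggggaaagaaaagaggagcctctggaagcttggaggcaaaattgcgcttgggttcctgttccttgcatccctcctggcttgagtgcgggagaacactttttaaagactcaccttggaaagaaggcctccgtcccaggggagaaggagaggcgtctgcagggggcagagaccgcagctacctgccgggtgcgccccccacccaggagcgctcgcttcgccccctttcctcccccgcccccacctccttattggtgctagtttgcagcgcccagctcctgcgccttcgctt
KCNK3 promoter (chr2:26692472-26692771, plus strand): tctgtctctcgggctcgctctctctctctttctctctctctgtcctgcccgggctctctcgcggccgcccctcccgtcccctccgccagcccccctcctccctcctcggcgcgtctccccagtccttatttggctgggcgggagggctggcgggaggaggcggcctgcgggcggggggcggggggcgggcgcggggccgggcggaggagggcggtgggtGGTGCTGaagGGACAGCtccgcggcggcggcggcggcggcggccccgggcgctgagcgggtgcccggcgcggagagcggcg
GABRE promoter (chrX:151974627-151974926, minus strand): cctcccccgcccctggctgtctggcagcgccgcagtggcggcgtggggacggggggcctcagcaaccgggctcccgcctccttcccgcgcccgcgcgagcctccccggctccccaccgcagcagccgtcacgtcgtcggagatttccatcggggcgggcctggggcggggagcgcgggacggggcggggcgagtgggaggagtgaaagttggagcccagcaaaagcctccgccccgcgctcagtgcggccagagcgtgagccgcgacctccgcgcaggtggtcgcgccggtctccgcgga
GABRQ promoter (chrX:152637645-152637944, plus strand): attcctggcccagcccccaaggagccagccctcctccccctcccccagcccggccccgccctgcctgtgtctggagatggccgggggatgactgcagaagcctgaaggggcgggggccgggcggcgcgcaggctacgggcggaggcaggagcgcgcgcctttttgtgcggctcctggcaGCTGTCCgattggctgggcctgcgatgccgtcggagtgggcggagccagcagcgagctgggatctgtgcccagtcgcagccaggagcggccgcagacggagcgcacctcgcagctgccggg
GRIK3 promoter (chr1:37034466-37034765, minus strand): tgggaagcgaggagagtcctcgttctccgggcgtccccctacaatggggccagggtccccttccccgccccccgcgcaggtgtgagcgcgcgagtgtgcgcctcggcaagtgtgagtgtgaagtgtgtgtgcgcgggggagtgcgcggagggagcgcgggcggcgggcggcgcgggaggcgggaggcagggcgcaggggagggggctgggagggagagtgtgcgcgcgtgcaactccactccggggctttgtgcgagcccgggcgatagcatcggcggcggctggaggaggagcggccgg
The KCNK3 window held both motifs with 3 bases between them but on opposite strands, which is not their arrangement in an RE1 element, the GABRQ window held 1, and those of KCNJ3, GABRE and GRIK3 held neither. Of 35116 RefSeq promoters of the same length, 7.75% held CAGCACC, 6.03% held GGACAGC and 0.738% held both. Of the 16 promoters of the 13 risen channel genes that have an entry, 3 (18.8%) held CAGCACC, 4 (25%) held GGACAGC and 1 (6.25%) held both. In the 86 promoters of tested channel genes not called in that comparison, the shares were 6.98% and 5.81%, and in the 102 promoters of untested channel genes 12.7% and 11.8%, and no difference between these sets was tested. The other 8 risen genes had no entry. A match of these letters is a description and not a bound site, and its part in the levels was not tested.

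The two-pore-domain potassium channels, which carry the background current that sets the resting potential, had 3 of 8 tested genes higher and none lower (37.5% higher, against 6.5% of all genes tested). Beside KCNK3 these were KCNK12 and KCNK10. KCNK12, a poorly conducting halothane-inhibited channel, went from 0.166, 0.354 and 0.317 CPM to 0.996, 1.66 and 1.45 CPM (log2 fold change 2.28 ± 0.30 SE, adjusted p = 0.00117, edgeR). KCNK10, a stretch- and lipid-sensitive channel, went from 0.221, 0.163 and 0.127 CPM to 0.610, 0.693 and 0.344 CPM (1.67 ± 0.37, adjusted p = 0.019, edgeR), and passed in 5 of the 9 fits that leave out a library. KCNK1, the family's most abundant by reads, was at 20.1, 19.6 and 19.9 CPM in controls and 18.1, 18.4 and 15.1 CPM in the knock-down and did not pass. The groups did not overlap in any of the 3. All 3 reached the minimum for testing in the TTC33 knock-down and not in all controls, so their count follows in part from the filter; of the 4 whose controls all reached it, 0 rose.

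Of the voltage-gated potassium channel pore subunits, 6 of 23 tested rose and none fell. Of the 22 whose controls all reached the minimum, 5 rose (22.7%, against 6.25% of all such genes). KCNS2, a silent subunit that works only in complexes with other pore subunits, went from 0.0829, 0.0816 and 0.0634 CPM to 0.675, 0.381 and 0.344 CPM (log2 2.57 ± 0.53 SE, adjusted p = 0.0132, edgeR). The groups of 3 were separate, though KCNS2 rests on 9 to 21 reads in each knock-down library and passed in 6 of the 9 fits. Its controls did not reach the minimum, so it was tested through the knock-down group.

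KCNC1, a fast, high-threshold channel of rapidly firing neurons, is with KCNA1 and KCND1 outside the rule for named genes and was chosen after its values were seen. It was at 11.6, 12.7 and 13.7 CPM in controls and 18.5, 22.6 and 25.0 CPM in the knock-down (log2 0.80 ± 0.14 SE, adjusted p = 0.00631, edgeR). Replicate 1 of the knock-down was the lowest of its group yet above every control. KCNA1, a low-threshold axonal channel, and KCND1, an A-type channel, rose less, by 0.73 ± 0.19 (adjusted p = 0.0333) and 0.64 ± 0.16 (adjusted p = 0.0289) in the same test, and each passed in 4 of the 9 fits. KCNC4, with the same kind of current and the most reads of any potassium channel, was at 29, 34.5 and 36.7 CPM in the knock-down, under its controls, and did not pass. None of the 4 auxiliary genes of these channels and none of the 5 calcium- and sodium-activated potassium channels tested passed.

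**Figure D2:**
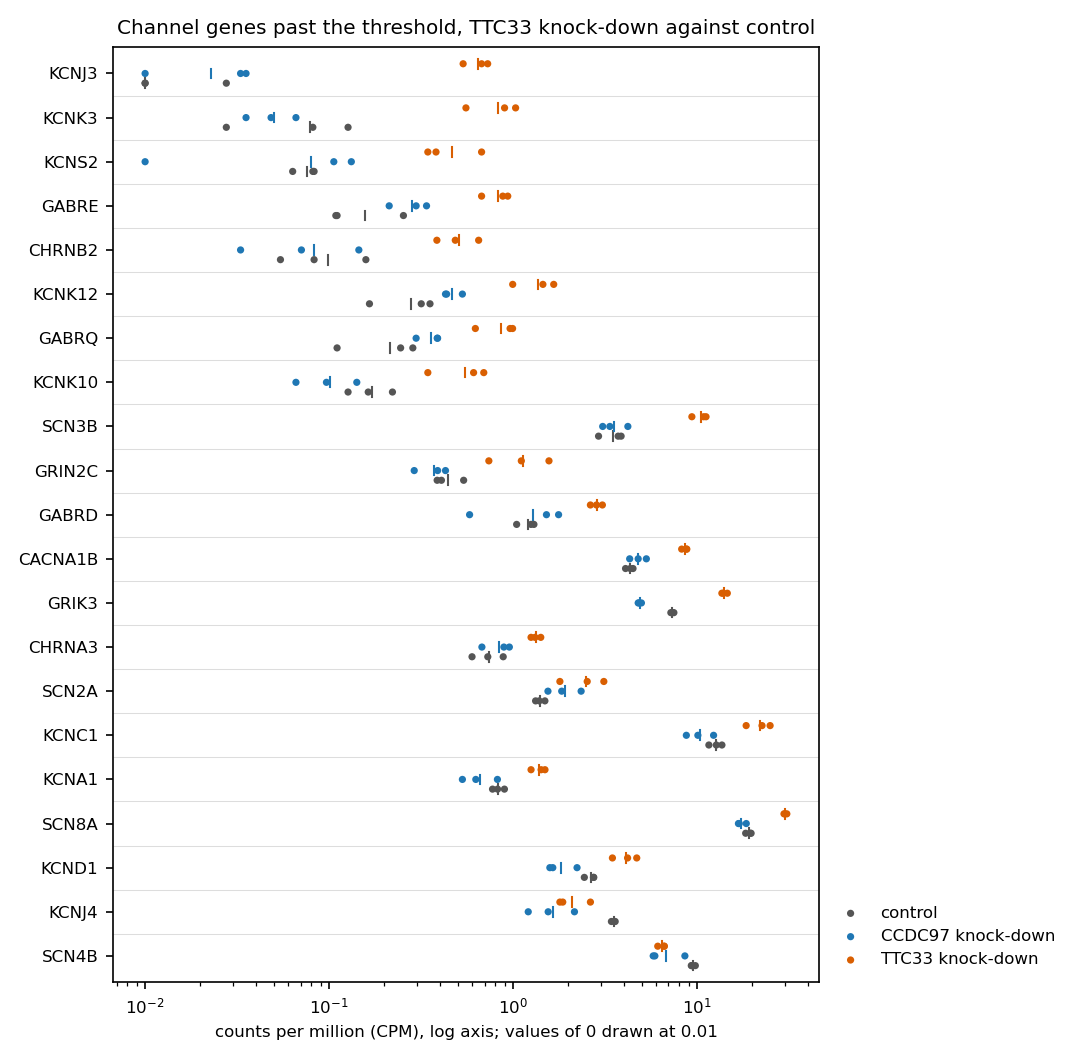
CPM in each library, on a log axis, of 19 of the 21 channel genes that rose and the 2 that fell (KCNJ4 and SCN4B, at the bottom) in the TTC33 knock-down; points are libraries and ticks group means, with values of 0 drawn at 0.01. In each gene drawn the 3 TTC33 knock-down libraries lie on one side of the 3 controls, and KCNJ3 and KCNK3 are furthest apart.

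In the sodium channels 3 of 10 tested genes rose and 1 fell (30% and 10%, against 6.5% and 5.44% of all genes tested). Of the 8 whose controls all reached the minimum, 3 rose and 1 fell (37.5% and 12.5%, against 6.25% and 5.92% of all such genes). SCN3B, an auxiliary beta subunit, was at 3.87, 3.73 and 2.92 CPM in controls and 9.38, 11.2 and 10.9 CPM in the TTC33 knock-down, 2.98-fold higher (log2 1.57 ± 0.14 SE, adjusted p = 0.000108, edgeR's quasi-likelihood test). SCN4B, another beta subunit, moved the other way, from 9.31, 9.80 and 9.39 CPM to 6.65, 6.62 and 6.12 CPM (-0.55 ± 0.14, adjusted p = 0.0306, edgeR). The beta subunits thus split, SCN3B passing in all 9 fits that leave out a library and SCN4B in 4.

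SCN8A, the pore subunit of the axon's trigger zone and nodes, was at 19.5, 18.4 and 19.7 CPM in controls and 30.1, 29.7 and 30.8 CPM in the knock-down (log2 fold change 0.65 ± 0.08 SE, adjusted p = 0.000615, edgeR). Its libraries lay within a narrow range in each group. SCN2A, its relative of early axons and again outside the naming rule, was at 1.33, 1.39 and 1.49 CPM and then 3.12, 2.53 and 1.80 CPM (0.83 ± 0.22, adjusted p = 0.0325, edgeR), passing in 5 of the 9 fits. SCN9A, with the most reads of the family, was at 29.5, 21.7 and 22.6 CPM in the knock-down, on both sides of its controls, and did not pass.

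Of 15 calcium channel genes tested, CACNA1B rose and none fell. Its share of 6.67% was near the 6.5% of all genes tested that rose. CACNA1B (ENSG00000148408), the N-type pore subunit that drives transmitter release at many nerve endings, was at 4.34, 4.49 and 4.09 CPM in controls and 8.26, 8.81 and 8.76 CPM in the TTC33 knock-down, 2-fold higher (log2 1.00 ± 0.11 SE, adjusted p = 0.000293, edgeR). No library of either group came near the other. The abundant auxiliary subunits divided by library: CACNA2D1 was at 70.7, 71.3 and 66.3 CPM in controls and at 67.2, 44.5 and 41.5 CPM in the knock-down, and CACNB4, a beta subunit, at 37.1, 18.6 and 16.7 CPM there. Replicate 1 was within or above the controls and replicates 2 and 3 were below them; exon GC content is 37.2% in CACNA2D1 and 35.5% in CACNB4. CHRNA5, with 41.9% GC, had the same order at 35.4, 26.4 and 24.3 CPM, and GRINA, with 63.6%, the opposite one at 54.6, 74.0 and 83.6 CPM. CACNA2D3, with 16.7, 16.1 and 15.7 CPM in controls and 16.5, 16.2 and 15.1 CPM in the knock-down, showed no such division. The part of GC content in the order of the libraries was not tested. None of these 5 genes passed. With GC content and length corrected for, CACNA2D1 (-0.24, adjusted p = 0.0115), CHRNA5 (-0.32, adjusted p = 0.00401) and GRINA (0.18, adjusted p = 0.0401) passed in edgeR's test and CACNB4 (0.01) and CACNA2D3 (-0.04) did not.

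The transmitter receptors gave 7 of the 21 increases. In the GABA-A receptors 3 of 6 tested genes rose and none fell: GABRE, GABRQ and GABRD, the epsilon, theta and delta subunits, of which delta is found in receptors outside synapses. GABRE and GABRQ were tested through the knock-down group, and of the 3 genes whose controls all reached the minimum GABRD alone rose (33.3%, against 6.25% of all such genes). GABRE was at 0.111, 0.109 and 0.254 CPM in controls and 0.675, 0.936 and 0.880 CPM in the TTC33 knock-down (log2 fold change 2.40 ± 0.35 SE, adjusted p = 0.00206, edgeR). GABRQ was at 0.111, 0.245 and 0.285 CPM and then 0.964, 0.624 and 0.995 CPM (2.01 ± 0.34, adjusted p = 0.0051, edgeR). Both passed in every fit that leaves out a library, and in the CCDC97 knock-down they were at 0.212 to 0.389 CPM and did not pass.

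GABRE (X, 151953124 to 151974680, minus strand) and GABRQ (X, 152638183 to 152657534, plus strand, GENCODE release 29 on GRCh38) lie 664 kb apart, and GABRA3 between them had no count in any library. GABRD was at 1.30, 1.25 and 1.05 CPM in controls and 2.63, 2.84 and 3.06 CPM in the TTC33 knock-down (1.24 ± 0.26, adjusted p = 0.0149, edgeR), passing in 4 of the 9 fits. GABRA5, an alpha subunit, was at 0.663, 0.762 and 0.444 CPM in controls and 0.835, 0.867 and 0.765 CPM in the knock-down and did not pass.

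Of 9 glutamate receptor genes tested, GRIK3 and GRIN2C rose (22.2%, against 6.5% of all genes tested). GRIK3 (ENSG00000163873), a kainate receptor subunit, was at 7.49, 7.21 and 7.36 CPM in controls and 14.6, 13.9 and 13.7 CPM in the TTC33 knock-down, 1.91-fold higher (log2 0.94 ± 0.08 SE, adjusted p = 9.29e-05, edgeR). GRIN2C, an NMDA receptor subunit of the cerebellum, was at 0.387, 0.408 and 0.539 CPM and then 0.739, 1.11 and 1.57 CPM (1.34 ± 0.30, adjusted p = 0.0189, edgeR), passing in 5 of the 9 fits. GRIK3 varied little within a group, GRIN2C more. GRID1, a delta receptor subunit with more reads than either, was at 16.8, 15.5 and 15.9 CPM in controls and 16.2, 15.4 and 16.3 CPM in the knock-down and did not pass.

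Of 9 nicotinic genes tested, CHRNB2 and CHRNA3 rose, and of the 8 whose controls all reached the minimum CHRNA3 alone did (12.5%, against 6.25% of all such genes). CHRNB2, the beta subunit of the main brain receptor, was at 0.0829, 0.0544 and 0.159 CPM in controls and 0.386, 0.485 and 0.650 CPM in the TTC33 knock-down (log2 2.34 ± 0.46 SE, adjusted p = 0.0105, edgeR), on 12 to 17 reads in each knock-down library. CHRNA3, the alpha subunit of autonomic ganglia and outside the naming rule, was at 0.884, 0.599 and 0.729 CPM and then 1.25, 1.32 and 1.42 CPM (0.84 ± 0.21, adjusted p = 0.0262, edgeR). Neither overlapped its controls, and they passed in 6 and 4 of the 9 fits. CHRNA7 and CHRNB1, at 6.69, 7.13 and 6.60 and at 4.39, 4.16 and 4.82 CPM in controls, did not pass; reads of CHRNA7 may be shared with its partial copy CHRFAM7A.

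**Figure D3:**
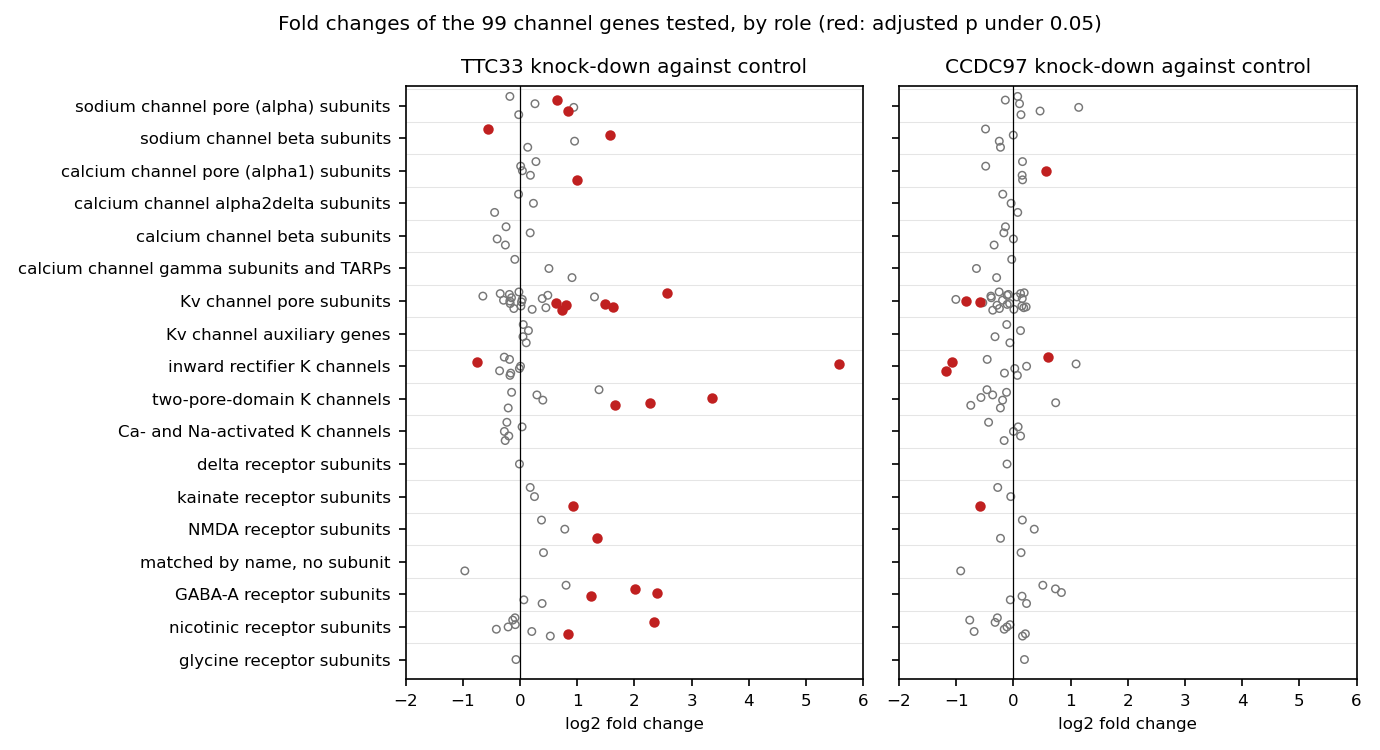
Log2 fold change of each of the 99 channel genes tested, by role, in the TTC33 knock-down (left) and the CCDC97 knock-down (right) against control; red points passed an adjusted p under 0.05 in edgeR's quasi-likelihood test. In the left panel 21 red points lie above 0 and 2 below, in the right panel 2 above and 5 below; the point at 5.57 is KCNJ3, whose fitted value rests on 1 control read.

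In the CCDC97 knock-down, 2 channel genes rose and 5 fell of the 99 tested (2.02% and 5.05%), against 2.07% higher and 2.49% lower (4.56% in all) among all genes in edgeR's test and 2.41% and 2.67% among protein-coding ones. All 7 were among the 85 whose controls reached the minimum, when 2.16% and 2.7% of such genes were called higher and lower. The share that rose was near that of all genes. Over the 99, 7 had all knock-down libraries above the controls (14.9% of all genes tested) and 15 all below (15%), the latter a share near that of all genes, and the median log2 fold change was -0.11. With GC content and length corrected for, 6 were higher and 11 lower (6.06% and 11.1%, against 11.3% and 8.11% of all genes), with a median of -0.01. Without any 1 control library, or without CCDC97 replicate 2 or 3, 1 was higher and 2 lower (0.99% and 1.98%). Of all genes, 0.392% to 0.687% were higher and 0.697% to 1.07% lower in these fits. Without CCDC97 replicate 1, 4 were higher and 11 lower (3.96% and 10.9%, against 5.08% and 4.8% of all genes). Without TTC33 replicate 2 or 3, 3 were lower (3%, against 1.86% and 2.16% of all genes). Without replicate 1 of both knock-downs 8 were higher and 22 lower (7.92% and 21.8%, against 18.7% and 16.9% of all genes). KCNJ8 alone of the risen genes, and KCNJ12 and GRIK3 alone of the fallen, passed in all 9 fits.

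The inward rectifier potassium channels, which stabilise the resting potential, held 3 of these 7 genes. Of 9 tested, 1 rose and 2 fell (11.1% and 22.2%, against 2.07% and 2.49% of all genes tested). KCNJ12, a strong rectifier of heart muscle, was at 7.32, 7.10 and 7.86 CPM in controls and 4.21, 2.87 and 2.71 CPM in the CCDC97 knock-down (log2 -1.17 ± 0.15 SE, adjusted p = 0.00212, edgeR). KCNJ4, another strong rectifier, was at 3.43, 3.59 and 3.55 CPM and then 2.16, 1.55 and 1.21 CPM (-1.08 ± 0.20, adjusted p = 0.0156, edgeR), and KCNJ8, a pore subunit of ATP-sensitive channels, rose from 7.41, 7.40 and 7.80 CPM to 11.7, 10.6 and 12 CPM (0.60 ± 0.09, adjusted p = 0.00518, edgeR). The groups of 3 were separate in each, and in KCNJ4 and KCNJ12 replicate 1 lay nearest the controls. KCNJ12 has a near-identical copy, KCNJ18, with no count in any library, so its reads are uncertain between the 2 genes.

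KCNJ4 was also lower in the TTC33 knock-down, at 1.86, 2.64 and 1.80 CPM (-0.74 ± 0.20, adjusted p = 0.0335, edgeR), though it passed in only 5 of the 9 fits there and 4 here. CACNA1D, an L-type pore subunit active near resting voltage, rose from 5.72, 4.84 and 6.06 CPM to 8.35, 7.70 and 8.71 CPM in the CCDC97 knock-down (0.57 ± 0.11, adjusted p = 0.0196, edgeR). In the TTC33 knock-down it was at 5.30, 6.07 and 5.74 CPM, in or at the edge of the range of its controls.

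KCNG1, a silent subunit, fell from 7.43, 8.16 and 8.53 CPM to 6.19, 3.44 and 3.82 CPM (-0.84 ± 0.20, adjusted p = 0.0418, edgeR). KCND3, the A-type channel of heart and brain, fell from 3.90, 3.46 and 4.15 CPM to 2.76, 2.15 and 2.81 CPM (-0.58 ± 0.14, adjusted p = 0.0431, edgeR). The groups did not overlap, but each of these genes passed in 2 of the 9 fits. GRIK3 fell from its 7.21 to 7.49 CPM to 4.85, 4.99 and 4.79 CPM (-0.59 ± 0.09, adjusted p = 0.00518, edgeR), with no overlap between its groups.

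**Figure D4:**
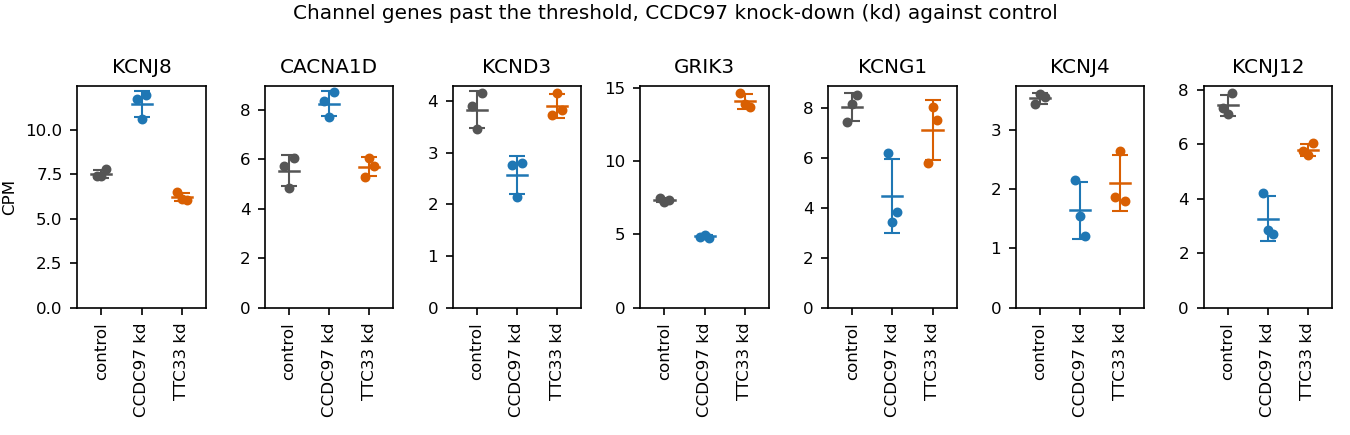
CPM in each library of the 7 channel genes that passed in the CCDC97 knock-down against control, on linear axes from 0; points are libraries, long ticks group means and bars 1 SD. KCNJ8 and CACNA1D are higher in the CCDC97 knock-down and the other 5 lower, and GRIK3 is lowest there and highest in the TTC33 knock-down.

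The knock-downs were also compared with each other, using the same 6 libraries as above. Against the CCDC97 knock-down, 32 of the 99 channel genes were higher in the TTC33 knock-down and 4 lower (32.3% and 4.04%), when 11.3% and 10.2% of all genes (21.5% in all), and 13.5% and 12.4% of protein-coding ones, were so called in edgeR's test. Of the 85 whose controls reached the minimum, 22 were higher (25.9%, against 11.6% of all such genes) and 4 lower (against 11%). With GC content and length corrected for, 29 were higher, 26 of them among the 32, and 9 were lower (29.3% and 9.09%, against 12% and 16.4% of all genes). Fitted on these 2 groups alone, 19 were higher and 2 lower (20% and 2.11%, against 4.75% and 3.65% of all genes). Without replicate 1 of both knock-downs 52 were higher and 13 lower (51.5% and 12.9%, against 27.5% and 27.8%). Leaving out CCDC97 replicate 2 left 19 higher (18.8%, against 4.33% of all genes). Leaving out TTC33 replicate 2 or 3 left 21 higher and 2 lower (21% and 2%). Of all genes, 4.95% and 4.77% were higher and 3.59% and 3.88% lower in these fits. Without TTC33 replicate 1, 11 were lower (10.9%, against 21.2% of all genes).

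Among genes whose controls all reached the minimum, 2 of 4 two-pore-domain channels and 10 of 22 voltage-gated potassium channel pore subunits were higher in that comparison. These were 50% and 45.5%, against 11.6% of all such genes. KCNK9, an acid-sensitive background channel related to KCNK3, was at 0.643, 0.728 and 0.268 CPM in the TTC33 knock-down and 0.177, 0.132 and 0.145 CPM in the CCDC97 knock-down (log2 1.84 ± 0.52 SE, adjusted p = 0.0306, edgeR), while one control at 0.354 CPM lay among the TTC33 knock-down values. KCNJ3 had 56 reads against 2, a ratio of 25.8 (95% interval 6.80 to 218, counting error only). KCNK3 differed by 3.93 ± 0.51, CHRNB2 by 2.66 ± 0.52, KCNK10 by 2.41 ± 0.45 and KCNS2 by 2.38 ± 0.55, all higher in the TTC33 knock-down and all with separate groups. KCNJ3, KCNK3, CHRNB2, KCNK10 and KCNS2 reached the minimum for testing in the TTC33 knock-down and not in all controls. The size of their differences thus follows in part from the filter, and KCNK9 did not reach the minimum in all controls either.

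The 4 lower in the TTC33 knock-down were KCNJ8 (-0.87 ± 0.09, adjusted p = 0.000216, edgeR), CACNA1D (-0.53 ± 0.12), CACNA2D1 (-0.52 ± 0.17) and KCNQ5 (-0.47 ± 0.11). KCNQ5, a subunit of the M-current channels, was at 32.9, 24.7 and 26.1 CPM in the TTC33 knock-down, 38.0, 36.8 and 41.4 CPM in the CCDC97 knock-down and 35.6, 34.7 and 36.1 CPM in controls. CACNA2D1 was at 61.2, 76.9 and 81.8 CPM in the CCDC97 knock-down and overlapped; it passed in 2 of the 9 fits, and its value was -0.29 with GC content and length corrected for. In the other 3 genes the groups were separate.

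Genes that work with these channels were counted from a list of 85, of which 59 were tested: 15 rose and 3 fell in the TTC33 knock-down, none rose and 2 fell in the CCDC97 knock-down. Of the 54 whose controls all reached the minimum, 11 rose (20.4%, against 6.25% of all such genes) and 3 fell (5.56%, against 5.92%) in the TTC33 knock-down. In the CCDC97 knock-down, where 2 of them fell (3.7%, against 2.7%), the share was near that of all such genes. Of the metabotropic receptors for the same transmitters, 6 of 8 tested rose in the TTC33 knock-down and none fell. Of the 5 whose controls all reached the minimum, 3 rose (60%, against 6.25% of all such genes). GABBR2, a GABA-B receptor subunit, was at 8.32, 8.19 and 8.21 CPM in controls and 17.9, 17.7 and 20.0 CPM in the knock-down (log2 1.17 ± 0.10 SE, adjusted p = 5.62e-05, edgeR). GRM8, a presynaptic glutamate receptor, was at 0.442, 0.327 and 0.539 CPM and then 2.12, 2.01 and 1.76 CPM (2.18 ± 0.21, adjusted p = 0.000164, edgeR). The muscarinic receptor CHRM3, chosen after its values were seen, was at 0.332, 0.0816 and 0.317 CPM and then 2.6, 1.77 and 2.45 CPM (3.22 ± 0.33, adjusted p = 0.00023, edgeR). None of these overlapped its controls, and in the CCDC97 knock-down none passed. The controls of CHRM3 did not all reach the minimum, so it was tested through the TTC33 knock-down group.

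NALCN, the sodium leak channel, and UNC80, a part of its complex, moved in opposite directions in the TTC33 knock-down. NALCN was at 11.4, 12.1 and 12.3 CPM in controls and 8.74, 7.63 and 6.81 CPM in the knock-down (-0.63 ± 0.10, adjusted p = 0.00433, edgeR), and UNC80 at 0.249, 0.245 and 0.127 CPM and then 1.48, 1.53 and 1.99 CPM (2.95 ± 0.27, adjusted p = 0.000111, edgeR). UNC80 was under the minimum for testing in every control and was tested through the knock-down group. Its call thus follows in part from the filter. NETO2, an auxiliary subunit of kainate receptors, fell from 134, 138 and 136 CPM to 87.5, 76.1 and 75.9 CPM (-0.77 ± 0.08, adjusted p = 0.000185, edgeR), while the kainate subunit GRIK3 rose in the same libraries. SHANK2, a postsynaptic scaffold, also fell (-0.51 ± 0.12, adjusted p = 0.0222, edgeR), while its relative SHANK1, outside the naming rule, rose (1.29 ± 0.30, adjusted p = 0.0219, edgeR). In the CCDC97 knock-down the scaffold HOMER2 (-0.36 ± 0.07, adjusted p = 0.0198, edgeR) and HCN3, a hyperpolarization-activated channel (-0.51 ± 0.11, adjusted p = 0.0279, edgeR), fell.

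Markers of mature neurons were compared beside these counts. Their 12 genes summed to 22.6 to 24.9 CPM in controls, 20.7 to 24.2 CPM in the CCDC97 knock-down and 35.2 to 36.6 CPM in the TTC33 knock-down, where 3 of the 6 tested rose (SNAP25, SYT1 and TUBB3) and none fell. Of all genes tested, 6.5% were called higher and 5.44% lower in that comparison. SYT1 was under the minimum for testing in every control and was tested through the TTC33 knock-down group. ELAVL4 and DCX, defining genes of neurons, were at 0 to 0.0707 CPM in every library. The 7 HEK293 markers summed to 1166 to 1203 CPM in controls and 1284 to 1384 CPM in the TTC33 knock-down. Of these, VIM was called higher there (mean from 616 to 780 CPM) and NEFL lower (from 188 to 152 CPM). NEFL, a neurofilament gene, was listed here and not among the neuronal markers, so their count of none fallen leaves it out. The other HEK293 markers, KRT8 and KRT18 among them, were not called. The cardiac markers MYH6, TNNT2 and NPPA summed to at most 0.0321 CPM in any library. Skeletal muscle markers summed to 0.359 to 0.571 CPM in controls and 0.643 to 0.936 CPM in the TTC33 knock-down, endothelial ones to 0.299 to 0.698 and 0.727 to 1.11 CPM, and astrocyte ones to 4.65 to 5.01 and 2.91 to 4.05 CPM, with none of the 5 genes tested in these 3 lists called. Leukocyte and hepatocyte markers summed to at most 0.248 CPM in any library. The part of these markers in the channel counts was not tested.

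Some channel genes share exon bases with other genes, and since the strand setting of the counting is not given in the sources used here, reads of the shared bases cannot be told apart. Of the genes called against control, KCNJ4 shares 12.6% of its exon bases with Z97056.1, KCNJ8 10.8% with AC010185.1, KCNG1 7.98% with AL050404.1, CACNA1D 6.8% with CHDH, SCN8A 6% with AC068987.2 and CHRNB2 5.45% with AL592078.1, all on the other strand. KCNA1 shares 7.11% with AC005906.2 on its own strand. CHRNA3 shares 4.16% with its neighbour CHRNA5, GABRE 0.88% and 0.84% with the microRNA genes MIR452 and MIR224, and SCN2A, KCNK10 and CACNA1B at most 1.16% with another gene. KCNJ3, KCNK3, GABRQ, SCN3B, KCNC1 and GRIK3 share none in GENCODE release 29.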

How the data were processed

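RNA-seq counts of 9 libraries, 3 per group, were used; groups and replicate numbers come from the labels. The tables deposited by the authors hold raw counts, as whole numbers, for each gene. The submitters' processing notes name Trimmomatic 0.39, HISAT2, HTSeq 2.0.1 and the build GRCh38. For HISAT2's version, the annotation release, the strand setting and the library kit: not given in the sources used here. Counts marked R12 were used, and their sum with those marked U was an alternative. Rows naming no gene held 33.4% to 57.9% of a library's counts and were left out.

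All 18299 genes kept by filterByExpr were fitted in edgeR 4.0.16 (R 4.3.3; TMM factors, quasi-likelihood test, a term per group, 6 residual degrees of freedom), with two-sided p-values Benjamini-Hochberg adjusted over all of them and a threshold of 0.05. The fit was tested on simulated data. SE is that of the log2 fold change, and CPM are counts per 1000000 after TMM scaling. Exon lengths, GC content and positions came from GENCODE release 29, which lists all 196 members; base composition was corrected with offsets from mgcv 1.9.3. Alternatives were DESeq2 1.42.0, other filters and scaling, fewer groups, the replicate number as a block, and leaving out libraries. Named genes are up to 15 risen and 10 fallen (TTC33), 10 each way (CCDC97) and 6 each way (between knock-downs) by fold change, those called in both comparisons with control, the 3 with most CPM per family, and up to 3 partner genes each way. Members and lists were chosen with earlier results of these data known. Replicates differed by more than sampling noise in every pair. Values of 3 members are not reported here; the counts include them.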

Additional observations from a re-analysis of the deposited data

Results flagged for a closer look

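GRIK3 was the only channel gene called in opposite directions in the 2 knock-downs: against control, its log2 fold change was 0.94 when TTC33 and -0.59 when CCDC97 was knocked down. The difference between the knock-downs was 1.53 ± 0.09 (SE; adjusted p = 3.25e-06, edgeR's quasi-likelihood test), with 13.7 to 14.6 CPM in the 3 TTC33 and 4.79 to 4.99 CPM in the 3 CCDC97 libraries. It was 1.31 with GC content and length corrected for. Both comparisons with control share the 3 control libraries.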

How the results depend on the processing

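The 82 called values examined gene by gene kept their sign under every alternative that gave a value, and 54 also kept their call under all of these. The correction for GC content and length lost 1 of the 82 calls, DESeq2's Wald test 1 of 69 and the replicate block 19. Summing the R12 and U counts lost 3, fits on the 2 groups compared 7 of 79, and leaving out both first knock-down libraries (chosen after seeing the data) 0. Over all channel genes, DESeq2's test called 15 of the 23 called for TTC33, 26 of the 36 between knock-downs and all 7 for CCDC97. It had 16 higher for TTC33 and 22 between knock-downs (16.2% and 22.2%, against 8.57% and 12.5% of all genes). Leaving out a control library lost 19 to 23.

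The labels do not say whether the replicate numbers pair the libraries. Correlations of deviations ran from -0.64 to 0.12 between same-numbered libraries and from -0.40 to 0.51 between the others. Replicate 1 stood apart in both knock-downs, in opposite directions, so these values cannot decide it. In the fit with that block, 17 channel genes were higher and 0 lower for TTC33, 1 and 2 for CCDC97, and 22 and 3 between the knock-downs. These were 17.2% and 0%, 1.01% and 2.02%, and 22.2% and 3.03% of the members tested. Of all genes in that fit, 2.37% and 1.76%, 0.536% and 0.776%, and 5.6% and 4.55% were so called. With the block and the GC and length correction the counts were 23 and 13, 5 and 8, and 26 and 9. With both the block and the correction, 12.2% and 12.9%, 10.3% and 7.18%, and 10.9% and 15.2% of all genes were so called. Of the members tested, the shares were 23.2% and 13.1%, 5.05% and 8.08%, and 26.3% and 9.09%.

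Counts that moved by over 1.5 times were as follows. Testing only genes with a mean of 5 CPM, which left 45 channel genes, gave 7 higher in the TTC33 knock-down (21 in the report), 3 lower in the CCDC97 knock-down (5) and 13 higher between knock-downs (32). These were 15.6%, 6.67% and 28.9% of the 45, against 7.54%, 4.34% and 16.1% of all genes in that fit. For the TTC33 decreases (2), no filter gave 8, DESeq2 4 and the GC and length correction 14. These were 4.47%, 4.04% and 14.1% of the members tested, against 5.54%, 7.92% and 14.3% of all genes. The correction gave 6 higher (2) and 11 lower (5) for CCDC97 and 9 lower between knock-downs (4), where fits on those 2 groups gave 19 higher and 2 lower. Leaving out 1 library gave 12 to 30 higher and 0 to 13 lower for TTC33, 1 to 4 higher and 2 to 11 lower for CCDC97, and 19 to 39 higher and 2 to 11 lower between knock-downs. Of all genes, these fits called 1.67% to 17.2% higher and 1.29% to 17.7% lower for TTC33. The shares were 0.392% to 5.39% and 0.697% to 5.23% for CCDC97, and 4.33% to 20.5% and 3.59% to 21.2% between knock-downs. Without both first knock-down libraries the counts were 37 and 15, 8 and 22, and 52 and 13. Members near 0 reads cannot be compared at this depth.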
